A study of Mus musculus with 6 samples.

Results

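Cadherins, protocadherins, contactins, Caspr proteins, neurexins, neuroligins and their fellow adhesion molecules were followed in mouse retinal ganglion cells (RGCs), which send the output of the retina to the brain through the optic nerve. The genes belong to the families by their symbols, and 77 of the 10361 gene names in the deposited table matched. Names listed under the same locus identifiers hold identical values and were taken once, so the 77 names gave 69 distinct entries of 10162 in all. Of these, 68 reached a mean of 1 FPKM over the libraries and were tested, among 9987 entries tested. FPKM counts sequenced fragments per transcript length and per library size, so levels of different genes can be compared. The entry that was not tested is Cdh15, the M-cadherin of muscle, which was at 0.141 and 0.422 FPKM in adult miR-1247 RGCs, 0.329 and 0.329 FPKM in adult control RGCs and 0.497 and 0.621 FPKM in E18 RGCs.

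Poly-A RNA of wild-type mice of strain C57/6NCrl was sequenced in 6 libraries, 2 in each of 3 groups. Adult miR-1247 RGCs had received an AAV2 vector that expresses the miR-1247-5p mimic, and adult control RGCs an AAV2 vector with a scrambled shRNA mimic and the red fluorescent protein mCherry. E18 RGCs came from untreated embryos of day 18 of gestation. Adult cells were pooled from 10 retinas per condition, purified on an antibody to Thy1 and sorted for mCherry, which left about 5000 cells, whereas about 50000 E18 cells were purified on Thy1 and not sorted. Age, vector, sorting and the number of cells therefore cannot be told apart between adult and E18 libraries, and the exact age of the adults is not given in the labels. The labels do not say whether both libraries of a group came from separate animals, so each p-value is set against a spread between libraries that may be only technical. All levels below are from n = 2 libraries a group.

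Cadherins bind cadherins on the next cell in the presence of calcium, and the classical ones hold the actin skeleton through catenins. Clustered protocadherins give single neurons a surface identity, and contactins, Ncam and L1 proteins carry immunoglobulin domains and guide, bundle and organise axons. Neurexins on the axon terminal bind neuroligins and Lrrtm proteins on the receiving cell, which makes them organisers of synapses. In the retina, type II cadherins and contactins are known to sort the processes of RGC types into layers and their axons to brain targets.

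The adhesion genes were higher in adult control than in E18 RGCs more often than lower. Of the 68 tested, 33 (48.5%) were higher and 17 (25.0%) lower at a limma adjusted p under 0.05. Of all 9987 entries 29.8% were called higher, 40.2% lower and 70.1% in either direction. The median log2 fold change, the difference of mean log2(FPKM + 1), was 0.33 for the adhesion genes and -0.16 for all entries. At least 2-fold changes were reached by 21 of the higher and 6 of the lower calls. In the plot of fold changes by family, non-clustered protocadherins, type II cadherins, Lrrtm and Slitrk genes lie mostly to the right of 0 and the L1 family wholly to the left. With libraries scaled to equal median ratios 39 adhesion genes were higher and 12 lower, against 34.3% and 34.1% of all entries, and the median of all entries moved to -0.02. In bulk samples fewer cells of a type and less RNA per cell cannot be told apart.

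Between adult miR-1247 and adult control RGCs the differences were smaller, and most of those called pointed down. Of the 68 adhesion genes, 12 (17.6%) were lower and 2 (2.94%) higher, against 6.22% lower, 3.53% higher and 9.75% in either direction of all entries. The lower ones were Pcdh9, Pcdh8, Cdh6, Slitrk5, Pcdh11x, Cntn1, Nfasc, Cdh13, Ncam2, L1cam, Pcdh10 and Cadm2, and the higher ones Cdh22 and Nrxn2. None of the calls reached a 2-fold change, and the median log2 fold change was -0.14 against -0.03 for all entries. Pcdh9 was the 1 call of the 14 that held under each of 17 alternative settings. The 12 lower calls were 2 without adult miR-1247 library 1, 1 without library 2, 3 without adult control library 1, 2 without library 2, and 5 without either E18 library. The 2 higher calls were 0 without any one of the adult libraries and 1 without either E18 library. Both comparisons use the same adult control libraries, so a gene that happens to be high in these would be pushed up in one comparison and down in the other.

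**Figure D1:**
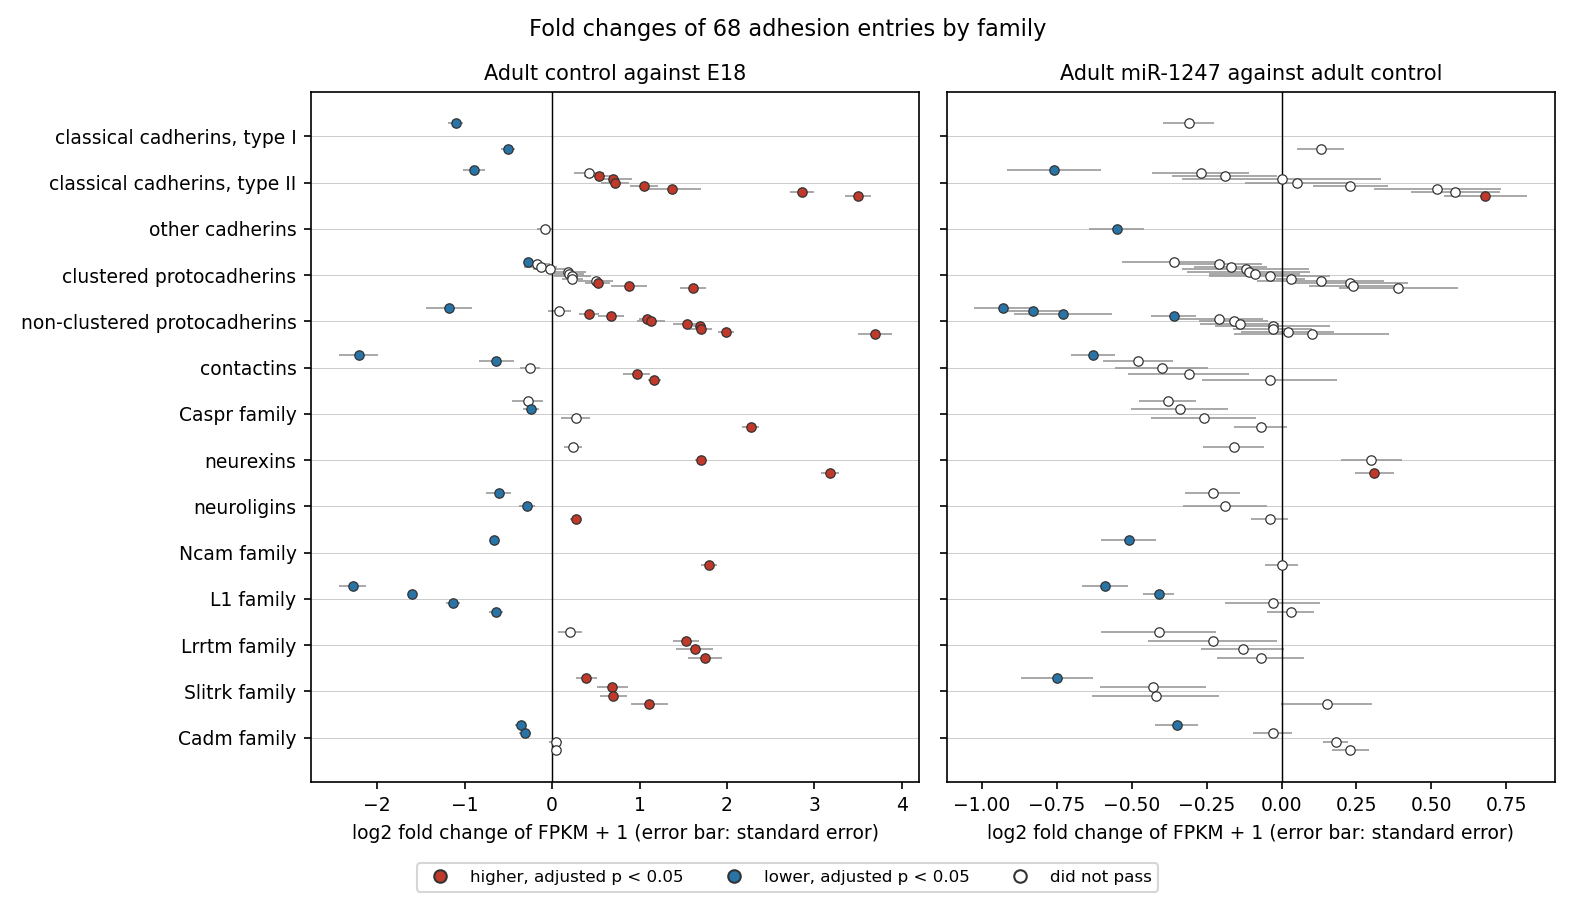
Log2 fold change of FPKM + 1 (horizontal axis) of the 68 tested adhesion entries by family (vertical axis), adult control against E18 on the left and adult miR-1247 against adult control on the right, with different horizontal scales. Each point is 1 entry, bars are standard errors and filled points passed an adjusted p of 0.05: 33 red and 17 blue on the left, 2 red and 12 blue on the right.

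The markers of cell types moved between the groups as well. All 14 RGC markers were listed, and their summed level was 2120 and 2090 FPKM in adult miR-1247 RGCs, 3410 and 3360 FPKM in adult control RGCs and 5520 and 5500 FPKM in E18 RGCs. Of these, 13 were lower in adult miR-1247 than in adult control RGCs, and 11 were lower and 3 higher in adult control than in E18 RGCs. The 5 listed of 10 amacrine cell markers summed to 923 and 967 FPKM in adult miR-1247, 675 and 716 FPKM in adult control and 309 and 323 FPKM in E18 libraries, with 2 higher and 0 lower in adult miR-1247 than in adult control RGCs, and 4 higher and 1 lower in adult control than in E18 RGCs. The 6 listed of 12 markers of Müller glia and astrocytes summed to 2020 and 1910 FPKM in adult miR-1247, 1570 and 1230 FPKM in adult control and 182 and 181 FPKM in E18 libraries. Of these 6, 1 (Dkk3) was higher and 0 lower in adult miR-1247 than in adult control RGCs. Against E18, 5 were higher and 1 (Vim) lower in adult control RGCs. Glul was at 795 and 632 FPKM in adult miR-1247 and 463 and 122 FPKM in adult control libraries. It did not pass between the adult groups (adjusted p = 0.116). Rlbp1, Gfap and Slc1a3 of that list, and every marker of microglia, endothelial cells and cones, had no entry among those analysed here. The remaining lists (rods, bipolar and horizontal cells, oligodendrocytes, progenitors and fibroblasts) each summed to at most 52.8 FPKM in every adult library. The part of these shifts in the results on adhesion genes was not tested.

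The summed level of the adhesion genes changed little beside the shifts within families. It came to 2260 and 2300 FPKM in adult miR-1247, 2350 and 2370 FPKM in adult control and 2150 and 2190 FPKM in E18 libraries. In the plot of family sums, the L1 family and type I cadherins stood highest in E18 libraries, and neurexins, type II cadherins and non-clustered protocadherins stood lowest there.

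**Figure D2:**
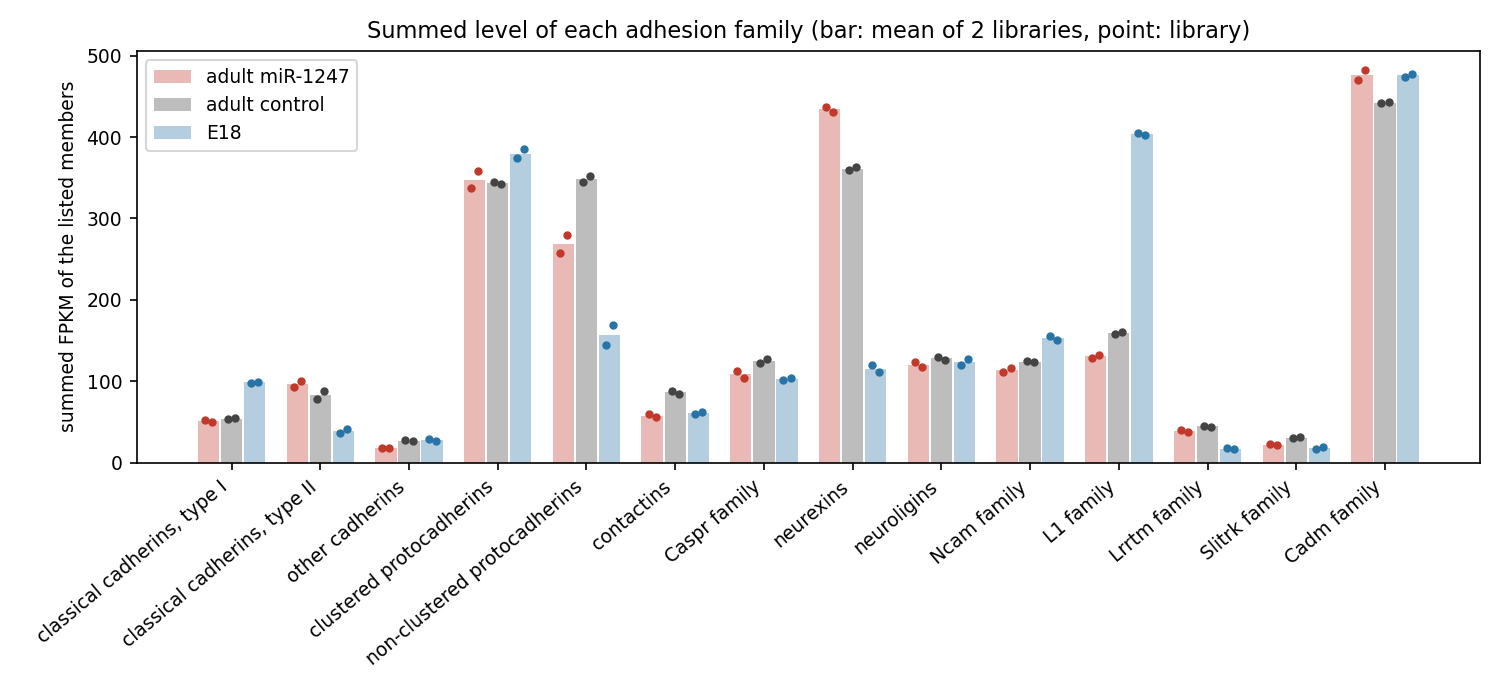
Summed FPKM (vertical axis) of the listed genes of each adhesion family, with adult miR-1247, adult control and E18 side by side; bars are means of 2 libraries and points are the libraries. The L1 family is at 405 and 402 FPKM in E18, far above both adult groups, and the neurexins are at 120 and 111 FPKM in E18, far below both.

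The type I classical cadherins, which build adherens junctions, were lower in adult RGCs, and adult type II cadherins were mostly higher. Cdh2 (N-cadherin, a substrate for growing neurites) was at 24.2 and 21.4 FPKM in adult miR-1247, 28.7 and 28.1 FPKM in adult control and 61.4 and 62.1 FPKM in E18 libraries. The E18 libraries stood clear above every adult library, with a log2 fold change of -1.10 ± 0.0855 (standard error) in adult control against E18 RGCs (adjusted p = 4.58e-05). Cdh4, R-cadherin, named for the retina, was at 27.8 and 27.5 FPKM in adult miR-1247, 24.4 and 26.1 FPKM in adult control and 36.0 and 36.5 FPKM in E18 libraries (-0.50 ± 0.0794 in adult control against E18, adjusted p = 0.00128). The Cdh4 value is a sum over loci that moved in opposite directions. Cdh2 made up 53.7% and 51.5% of the FPKM of the 3 type I genes in adult control libraries and 62.7% and 62.6% in E18 libraries. Neither gene passed between adult miR-1247 and adult control RGCs.

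Among 9 type II cadherins, 7 were higher and 1 lower in adult control than in E18 RGCs. The shares over all entries were 29.8% higher and 40.2% lower. Cdh20 was at 20.8 and 20.7 FPKM in adult miR-1247, 12.8 and 14.3 FPKM in adult control and 0.373 and 0.199 FPKM in E18 libraries, an FPKM ratio of 47.5 between adult control and E18. Cdh22 followed with 22.5 and 22.6 FPKM in adult miR-1247, 13.9 and 13.5 FPKM in adult control and 0.867 and 1.19 FPKM in E18 libraries. Both were nearly silent in E18 and ordered in the same way over the groups, with no overlap between any pair of groups. Their log2 fold changes in adult control against E18 RGCs were 3.50 ± 0.148 (adjusted p = 3.13e-06) and 2.86 ± 0.139 (adjusted p = 5.66e-06). Of the type II FPKM, Cdh20 made up 16.4% and 16.3% in adult control and 1.03% and 0.485% in E18 libraries, and Cdh22 17.7% and 15.4% in adult control and 2.40% and 2.90% in E18 libraries.

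Cdh22 was also higher in adult miR-1247 than in adult control RGCs (0.68 ± 0.139, adjusted p = 0.0347), and its adjusted p ran from 0.0143 to 0.14 over the alternatives. Cdh20 showed a like difference (0.58 ± 0.148) that missed the threshold (adjusted p = 0.0586). Cdh6, which in mice marks RGCs that project to brain centres outside the image-forming pathway, was at 4.03 and 4.16 FPKM in adult miR-1247, 6.99 and 8.36 FPKM in adult control and 4.41 and 4.07 FPKM in E18 libraries. The adult control libraries were the high ones, so Cdh6 was lower in adult miR-1247 than in adult control RGCs (-0.76 ± 0.157, adjusted p = 0.0352, 0.028 to 0.132 over the alternatives) and higher in adult control than in E18 RGCs (0.72 ± 0.157, adjusted p = 0.00566).

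Cdh11, a cadherin also known from bone and mesenchyme, was the type II gene that was lower in adult control RGCs. It was at 8.17 and 7.78 FPKM in adult miR-1247, 6.65 and 6.69 FPKM in adult control and 12.5 and 14 FPKM in E18 libraries (-0.89 ± 0.126 in adult control against E18, adjusted p = 0.000766). Cdh18 was at 12 and 19.5 FPKM in adult miR-1247, 11.6 and 20 FPKM in adult control and 4.19 and 6.64 FPKM in E18 libraries. The libraries of each Cdh18 group lay far apart, and its call (1.37 ± 0.333, adjusted p = 0.00921) was lost without adult control library 2 and without E18 library 1, with an adjusted p of up to 0.0795. Cdh7 was at 6.36 and 8.23 FPKM in adult miR-1247, 8.60 and 9.32 FPKM in adult control and 3.86 and 3.78 FPKM in E18 libraries (1.05 ± 0.163, adjusted p = 0.00122). Cdh8 was at 6.14 and 4.36 FPKM in adult miR-1247, 3.64 and 3 FPKM in adult control and 1.81 and 1.51 FPKM in E18 libraries (0.70 ± 0.211, adjusted p = 0.0222). Cdh10, at 5.48 to 10.6 FPKM, was higher in adult control by 0.54 ± 0.171 (adjusted p = 0.0275), and Cdh12, at 2.19 to 3.63 FPKM, did not pass. Leaving out adult control library 1 or E18 library 1 ended the calls of Cdh8 and Cdh10, with adjusted p up to 0.0973 and 0.14, as did leaving out E18 library 2 for Cdh8.

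Cdh13 (T-cadherin), which lacks the catenin-binding tail and is held by a lipid anchor, was called between the adult groups. It was at 18.3 and 17.4 FPKM in adult miR-1247, 27.2 and 26.1 FPKM in adult control and 29.4 and 27.0 FPKM in E18 libraries. Both miR-1247 libraries lay below the other 4, with a log2 fold change of -0.55 ± 0.0915 against adult control (adjusted p = 0.0207, 0.0182 to 0.103 over the alternatives). Adult control and E18 libraries overlapped (-0.08 ± 0.0915, adjusted p = 0.465).

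Of the 12 clustered protocadherin entries, 4 were called in adult control against E18 RGCs, against 70.1% of all entries. Their alpha and gamma genes join a variable first exon to shared constant exons, and in the table Pcdha11, Pcdha5, Pcdha9, Pcdhac2, Pcdhga12 and Pcdhgc4 are 1 entry. This alpha and gamma entry had the highest mean over the 6 libraries of all 69 and was at 260 and 279 FPKM in adult miR-1247, 263 and 263 FPKM in adult control and 315 and 323 FPKM in E18 libraries. It was lower in adult control than in E18 RGCs by a log2 fold change of -0.27 ± 0.0478 (adjusted p = 0.00209), a call lost under median ratio scaling (adjusted p = 0.0626). The 11 beta entries lay between 1.94 and 14.7 FPKM in every library, all assigned to the same stretch of chromosome 18 (37063236 to 37974926 in mm39), so reads could be shared out between them uncertainly.

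Of the beta entries, 3 were higher in adult control than in E18 RGCs and the other 8 did not pass. Among all entries 29.8% were higher and 40.2% lower. Pcdhb3 was at 10.6 and 8.62 FPKM in adult miR-1247, 10.3 and 10.2 FPKM in adult control and 2.65 and 2.75 FPKM in E18 libraries (1.61 ± 0.152, adjusted p = 0.000112). Pcdhb4 was at 4.76 and 4.15 FPKM in adult miR-1247, 5.70 and 4.14 FPKM in adult control and 1.94 and 2.48 FPKM in E18 libraries (0.88 ± 0.204, adjusted p = 0.00769). All adult libraries exceeded both E18 libraries for these genes. The entry of Pcdhb5 and Pcdhb7, higher by 0.52 ± 0.146 (adjusted p = 0.0171), lost its call without adult control library 1 or either E18 library (adjusted p up to 0.0873). None of the 12 clustered entries passed between adult miR-1247 and adult control RGCs, against 9.75% of all entries. Their log2 fold changes there ran from -0.36 to 0.39.

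Non-clustered protocadherins, which stand alone in the genome and act in axon and dendrite contacts, were mostly higher in adult control than in E18 RGCs: 9 of 11, with 1 lower. Over all entries 29.8% were higher and 40.2% lower. Pcdh20 was at 19.2 and 20 FPKM in adult miR-1247, 20.5 and 19.6 FPKM in adult control and 0.360 and 0.958 FPKM in E18 libraries. Its log2 fold change of 3.69 ± 0.192 in adult control against E18 RGCs (adjusted p = 7.54e-06) came with an FPKM ratio of 30.4. It was the highest log2 fold change among the adhesion genes with a pseudocount of 1, whereas with a pseudocount of 0.1 Cdh20 was higher, at 5.18 against 4.85. The 4 adult libraries of Pcdh20 overlapped (-0.03 ± 0.192, adjusted p = 0.937). Pcdh7, the family's most strongly expressed gene, was at 81.7 and 103 FPKM in adult miR-1247, 102 and 111 FPKM in adult control and 58.4 and 75.1 FPKM in E18 libraries (0.67 ± 0.148 in adult control against E18, adjusted p = 0.00608).

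Pcdh9 was high in adult control libraries and lower in both other groups. It was at 26.4 and 24.4 FPKM in adult miR-1247, 51.6 and 47.1 FPKM in adult control and 11.4 and 11.9 FPKM in E18 libraries. The 3 groups did not overlap, and the miR-1247 libraries lay between E18 and control. The log2 fold change was -0.93 ± 0.0943 in adult miR-1247 against adult control (adjusted p = 0.00544, 0.00423 to 0.0469 over the alternatives) and 1.99 ± 0.0943 in adult control against E18 RGCs (adjusted p = 4.93e-06). Pcdh8 (arcadlin), induced by neuronal activity in rat, was at 26 and 25.7 FPKM in adult miR-1247, 45.0 and 48.1 FPKM in adult control and 20 and 22.8 FPKM in E18 libraries. For Pcdh8 the miR-1247 libraries lay just above the E18 ones, at -0.83 ± 0.0936 from adult control (adjusted p = 0.00782, 0.0059 to 0.0569 over the alternatives), and adult control lay 1.09 ± 0.0936 above E18 (adjusted p = 7.28e-05).

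Pcdh10, which links to the actin regulator WAVE, and the X-linked Pcdh11x had the same order of groups as Pcdh9. Pcdh10 was at 45.7 and 48.8 FPKM in adult miR-1247, 59.7 and 62.4 FPKM in adult control and 18.2 and 18.4 FPKM in E18 libraries. Pcdh11x was at 5.27 and 4.24 FPKM in adult miR-1247, 8.85 and 8.20 FPKM in adult control and 3.53 and 3.18 FPKM in E18 libraries. Against adult control, adult miR-1247 was lower, at -0.36 ± 0.0754 for Pcdh10 (adjusted p = 0.0359, 0.0296 to 0.147 over the alternatives) and at -0.73 ± 0.163 for Pcdh11x (adjusted p = 0.0418, 0.0299 to 0.16). Against E18, adult control was higher by 1.69 ± 0.0754 for Pcdh10 (adjusted p = 3.92e-06) and 1.13 ± 0.163 for Pcdh11x (adjusted p = 0.000864).

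Pcdh19, an X-linked gene mutated in a human epilepsy, and Pcdh18 were higher in adult control than in E18 RGCs and alike in both adult groups. Pcdh19 was at 14.9 and 15.6 FPKM in adult miR-1247, 15.9 and 15.1 FPKM in adult control and 3.70 and 4.5 FPKM in E18 libraries (1.70 ± 0.132, adjusted p = 4.4e-05). Pcdh18 was at 8.73 and 7.62 FPKM in adult miR-1247, 7.98 and 8.09 FPKM in adult control and 2.30 and 1.91 FPKM in E18 libraries (1.54 ± 0.156, adjusted p = 0.000154). Both genes had adult libraries that overlapped between the groups. Pcdh15, a tip-link protein of sensory hair cells, was the gene that was lower. It was at 0.424 and 0.878 FPKM in adult miR-1247, 0.717 and 0.362 FPKM in adult control and 2.12 and 2.84 FPKM in E18 libraries. The log2 fold change in adult control against E18 was -1.18 ± 0.259 (adjusted p = 0.00602). Every adult library was under 1 FPKM, so Pcdh15 entered the test through its E18 level. Of the 2.84 FPKM in E18 library 2, 1.55 lay in a locus that held 0.211 in E18 library 1. This call, among the 17 lower, is therefore uncertain. Pcdh1, at 15.1 to 22.2 FPKM, was higher in adult control by 0.42 ± 0.114 (adjusted p = 0.0151, lost without either adult control library or E18 library 1), and Pcdh17, at 8.61 to 10.6 FPKM, did not pass.

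**Figure D3:**
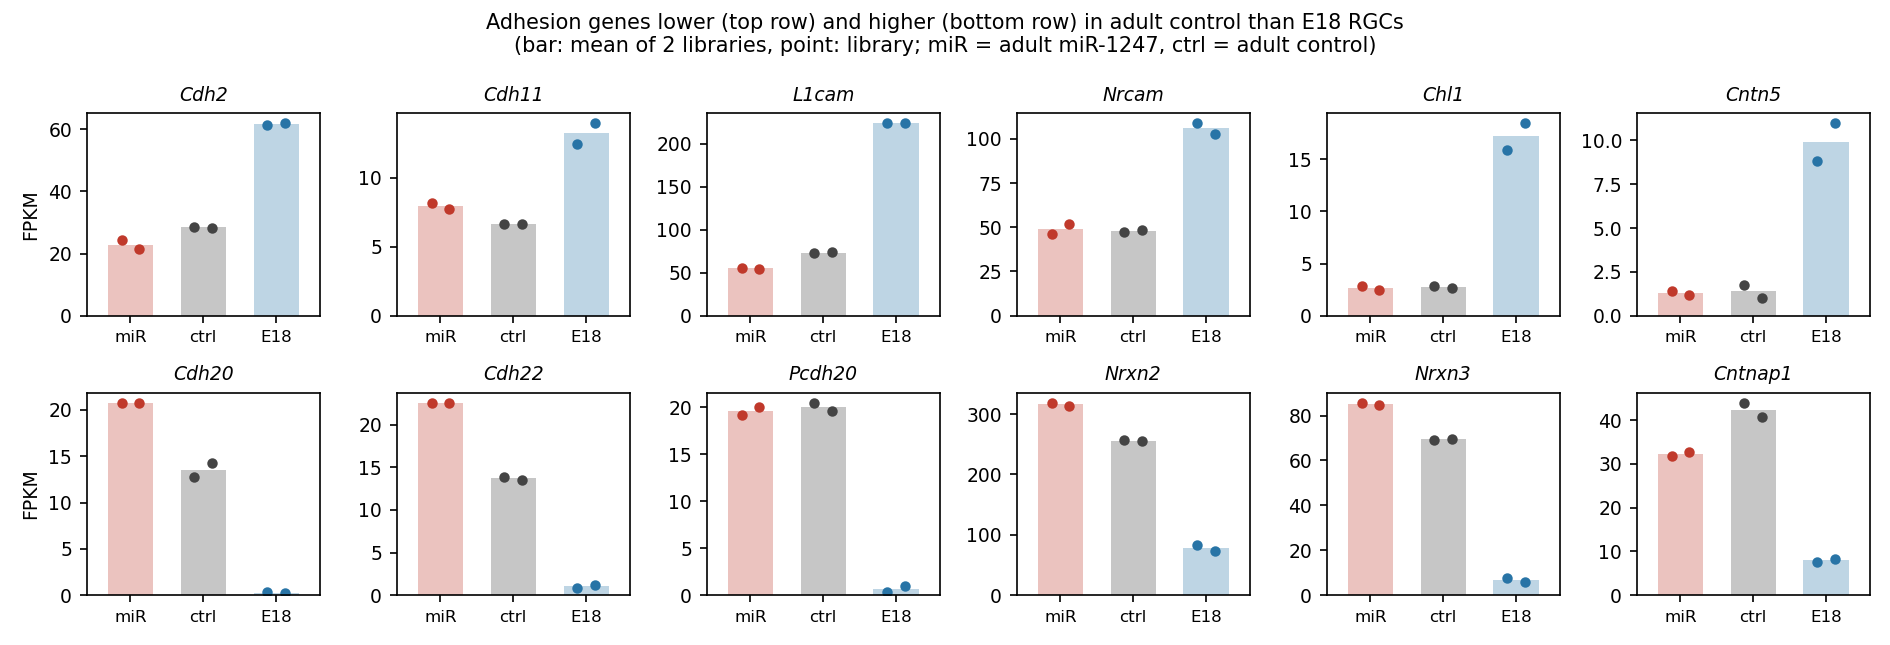
FPKM (vertical axis, a scale of its own in each panel) in adult miR-1247, adult control and E18 libraries of 6 genes that were lower (top) and 6 that were higher (bottom) in adult control than in E18 RGCs; bars are means and points the 2 libraries. L1cam is at 224 FPKM in both E18 libraries against 72.8 and 73.8 FPKM in adult control, and Cdh20, Cdh22 and Pcdh20 are close to 0 in E18.

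The contactins were divided by age. Cntn1, which forms the axonal side of the junction between axon and myelin together with Caspr, was at 36.8 and 35.4 FPKM in adult miR-1247, 57.8 and 55.2 FPKM in adult control and 24.2 and 24.7 FPKM in E18 libraries. The 3 groups were clear of one another. Cntn1 was 1.17 ± 0.0734 higher in adult control than in E18 RGCs (adjusted p = 1.65e-05), and lower in adult miR-1247 than in adult control RGCs (-0.63 ± 0.0734, adjusted p = 0.00838, 0.00665 to 0.061 over the alternatives). Cntn5, which in mice takes part in wiring direction-selective RGCs, was lower in adult control RGCs, at 1.39 and 1.18 FPKM in adult miR-1247, 1.76 and 1.01 FPKM in adult control and 8.82 and 11 FPKM in E18 libraries (-2.21 ± 0.225 in adult control against E18, adjusted p = 0.000161).

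Cntn4, needed in mice for RGC axons to reach the nucleus of the optic tract, was at 9.76 and 8.93 FPKM in adult miR-1247, 11.5 and 13.8 FPKM in adult control and 6.58 and 5.38 FPKM in E18 libraries (0.97 ± 0.155 in adult control against E18, adjusted p = 0.00138). Cntn6 was at 2.33 and 2.04 FPKM in adult miR-1247, 3.58 and 2.42 FPKM in adult control and 5.23 and 5.09 FPKM in E18 libraries. It was lower in adult control than in E18 RGCs (-0.64 ± 0.201, adjusted p = 0.0263), a call lost under median ratio and quantile scaling and without adult control library 2 or either E18 library (adjusted p up to 0.111). Cntn2 (TAG-1), at 9.32 and 8.47 FPKM in adult miR-1247, 13.5 and 12.2 FPKM in adult control and 15.3 and 15.6 FPKM in E18 libraries, passed in neither comparison, with -0.48 ± 0.117 in adult miR-1247 against adult control (adjusted p = 0.0505). Between adult miR-1247 and adult control RGCs 1 of the 5 contactins was called, against 9.75% of all entries. Their log2 fold changes ran from -0.63 to -0.04, where the median of all entries was -0.03. Cntn1 made up 65.6% and 65.2% of contactin FPKM in adult control and 40.2% and 40% in E18 libraries, and Cntn5 made up 2% and 1.19% in adult control and 14.7% and 17.8% in E18 libraries.

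Among the Caspr genes, the partner of Cntn1 changed most. Cntnap1 (Caspr) was at 31.7 and 32.8 FPKM in adult miR-1247, 44.0 and 40.8 FPKM in adult control and 7.63 and 8.31 FPKM in E18 libraries. It was 2.27 ± 0.0939 higher in adult control than in E18 RGCs (adjusted p = 2.82e-06) and -0.38 ± 0.0939 from adult control in adult miR-1247 RGCs, which missed the threshold (adjusted p = 0.0524). Cntnap2 (Caspr2), which clusters potassium channels on myelinated axons, was at 73.2 and 63.6 FPKM in adult miR-1247, 68.4 and 75.6 FPKM in adult control and 84.3 and 85.6 FPKM in E18 libraries. Its call in adult control against E18 RGCs (-0.24 ± 0.087, adjusted p = 0.0452) was lost in 8 of 17 alternatives, among them each of the 3 other scalings and the fits without adult control library 1 or either E18 library (adjusted p up to 0.425). Cntnap5a and Cntnap4, between 3.42 and 6.02 FPKM, did not pass in either comparison.

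The neurexin genes Nrxn2 and Nrxn3 stood highest in adult miR-1247 and lowest in E18 libraries. Nrxn2 was at 319 and 314 FPKM in adult miR-1247, 257 and 255 FPKM in adult control and 83.3 and 73.4 FPKM in E18 libraries. The groups were far apart relative to the spread within them. Nrxn2 was higher in adult miR-1247 than in adult control RGCs by 0.31 ± 0.0652 (adjusted p = 0.0381, 0.0194 to 0.196 over the alternatives) and higher in adult control than in E18 RGCs by 1.70 ± 0.0652 (adjusted p = 2.07e-06). Nrxn3 was at 85.8 and 84.9 FPKM in adult miR-1247, 69.3 and 69.4 FPKM in adult control and 7.54 and 6.08 FPKM in E18 libraries, an FPKM ratio of 10.2 between adult control and E18 (3.18 ± 0.102, adjusted p = 9.21e-07). Its difference between adult miR-1247 and adult control (0.30 ± 0.102) did not pass (adjusted p = 0.118).

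Neuroligins, the receiving partners of neurexins, moved far less. Nlgn2, which is placed at inhibitory synapses, was at 92.5 and 88.0 FPKM in adult miR-1247, 94.9 and 90.4 FPKM in adult control and 74.9 and 77.8 FPKM in E18 libraries (0.27 ± 0.0606 in adult control against E18, adjusted p = 0.00606). Nlgn1, of excitatory synapses, was at 8.60 and 10.0 FPKM in adult miR-1247, 11.2 and 10.3 FPKM in adult control and 15.4 and 18.4 FPKM in E18 libraries (-0.61 ± 0.14, adjusted p = 0.00731, up to 0.056 without E18 library 2). Nlgn3, whose entry shares its locus with Med12, was at 21.8 and 20.1 FPKM in adult miR-1247, 23.9 and 25.8 FPKM in adult control and 29.9 and 31.1 FPKM in E18 libraries. Its call (-0.29 ± 0.0915, adjusted p = 0.0275) was lost under each of the 3 other scalings and without adult control library 1 or either E18 library (adjusted p up to 0.224). None of the neuroligins passed between adult miR-1247 and adult control RGCs.

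The Ncam pair split. Ncam1, the main carrier of polysialic acid on neurons, was at 88.8 and 92.4 FPKM in adult miR-1247, 92.8 and 88.6 FPKM in adult control and 146 and 143 FPKM in E18 libraries (-0.66 ± 0.0552 in adult control against E18, adjusted p = 6.17e-05). Its adult libraries overlapped. Ncam2, known for its part in bundling olfactory axons, was at 22.5 and 23.2 FPKM in adult miR-1247, 32.0 and 34.2 FPKM in adult control and 8.87 and 8.80 FPKM in E18 libraries. It was higher in adult control than in E18 RGCs (1.79 ± 0.0924, adjusted p = 7.24e-06) and lower in adult miR-1247 than in adult control RGCs (-0.51 ± 0.0924, adjusted p = 0.0249, 0.0191 to 0.113 over the alternatives). Ncam2 made up 25.7% and 27.8% of the FPKM of the pair in adult control and 5.72% and 5.81% in E18 libraries.

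All 4 genes of the L1 family, which promote axon growth and bundling, were lower in adult control than in E18 RGCs. The share lower among all entries was 40.2%. L1cam was at 55.5 and 54.6 FPKM in adult miR-1247, 72.8 and 73.8 FPKM in adult control and 224 and 224 FPKM in E18 libraries, so that E18 libraries stood well clear of the adults. L1cam was lower in adult control than in E18 RGCs, at -1.60 ± 0.0508 (adjusted p = 8.87e-07) and lower again in adult miR-1247 than in adult control RGCs, at -0.41 ± 0.0508 (adjusted p = 0.0105, 0.00932 to 0.0639 over the alternatives). Nfasc, which anchors the nodes of Ranvier, was at 24.5 and 22.5 FPKM in adult miR-1247, 35.4 and 36.1 FPKM in adult control and 56.3 and 55.9 FPKM in E18 libraries. It too was lowest in miR-1247 libraries, with -0.59 ± 0.0766 against adult control (adjusted p = 0.0115, 0.00971 to 0.0666 over the alternatives) and -0.64 ± 0.0766 in adult control against E18 RGCs (adjusted p = 0.000354).

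Chl1, the close homologue of L1, was at 2.84 and 2.49 FPKM in adult miR-1247, 2.86 and 2.62 FPKM in adult control and 15.9 and 18.5 FPKM in E18 libraries (-2.28 ± 0.158, adjusted p = 2.64e-05). Nrcam, also found at nodes of Ranvier, was at 46.0 and 52.0 FPKM in adult miR-1247, 47.3 and 48.3 FPKM in adult control and 109 and 103 FPKM in E18 libraries (-1.13 ± 0.0785, adjusted p = 2.66e-05). The adult libraries of both genes overlapped between the groups.

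The Lrrtm and Slitrk genes, which encode leucine-rich repeat proteins of the postsynaptic side, were 7 of 8 higher in adult control than in E18 RGCs and 0 lower. Among all entries 29.8% were higher and 40.2% lower. Lrrtm1 was at 6.35 and 9.40 FPKM in adult miR-1247, 10.6 and 10.6 FPKM in adult control and 2.48 and 2.44 FPKM in E18 libraries (1.75 ± 0.193, adjusted p = 0.000232). Lrrtm4 was at 9.21 and 5.84 FPKM in adult miR-1247, 9.12 and 8.54 FPKM in adult control and 2.12 and 2.24 FPKM in E18 libraries (1.63 ± 0.214, adjusted p = 0.00054). Lrrtm2 was at 15.7 and 15.1 FPKM in adult miR-1247, 16 and 16.4 FPKM in adult control and 5.68 and 4.30 FPKM in E18 libraries (1.53 ± 0.145, adjusted p = 0.000113). Every adult library of these genes exceeded both E18 libraries. Lrrtm3, at 7.30 to 9.09 FPKM, did not pass. Lrrtm1, Lrrtm2 and Lrrtm3 lie inside the alpha-catenin genes Ctnna2, Ctnna1 and Ctnna3 on the opposite strand. The TruSeq RNA kit named in the labels is not stated to keep strand, so some reads of the hosts may have been assigned to them.

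Slitrk5 differed in both comparisons. It was at 7.06 and 7.42 FPKM in adult miR-1247, 12.3 and 13.3 FPKM in adult control and 9.46 and 9.65 FPKM in E18 libraries. The miR-1247 libraries were the lowest of the 6, at -0.75 ± 0.12 from adult control (adjusted p = 0.0196, 0.0159 to 0.0913 over the alternatives). The difference between adult control and E18 RGCs (0.39 ± 0.12, adjusted p = 0.0246) was lost without adult control library 2 or either E18 library (adjusted p up to 0.102). Slitrk4 was at 5.06 and 3.89 FPKM in adult miR-1247, 6.85 and 5.78 FPKM in adult control and 1.95 and 2.86 FPKM in E18 libraries (1.11 ± 0.212, adjusted p = 0.00312). Slitrk1 was at 5.58 and 5.83 FPKM in adult miR-1247, 4.96 and 5.16 FPKM in adult control and 2.58 and 2.88 FPKM in E18 libraries (0.70 ± 0.153, adjusted p = 0.00574). Slitrk3 was at 4.81 and 3.81 FPKM in adult miR-1247, 5.62 and 6.68 FPKM in adult control and 3.27 and 3.60 FPKM in E18 libraries (0.69 ± 0.177, adjusted p = 0.0121, up to 0.0618 without adult control library 2 or E18 library 1). The 4 genes kept an adult control level above that of E18 in every library.

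The Cadm genes (SynCAMs), adhesion molecules of axons and synapses, were strongly expressed in every group and differed little. Cadm3, whose locus also carries the name Ackr1, was at 264 and 276 FPKM in adult miR-1247, 241 and 237 FPKM in adult control and 231 and 232 FPKM in E18 libraries. It passed in neither comparison (0.18 ± 0.0433 in adult miR-1247 against adult control, adjusted p = 0.0511). Cadm4 was at 92.7 and 88.0 FPKM in adult miR-1247, 77.1 and 76.9 FPKM in adult control and 95.5 and 102 FPKM in E18 libraries (-0.36 ± 0.0619 in adult control against E18, adjusted p = 0.00205). Cadm1 was at 79.6 and 86.2 FPKM in adult miR-1247, 82.0 and 87.8 FPKM in adult control and 107 and 104 FPKM in E18 libraries (-0.31 ± 0.0664, adjusted p = 0.00533, lost under median ratio scaling and equal totals, up to 0.0749). Adult control libraries lay below E18 libraries in both genes, with no overlap.

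Cadm2 was the Cadm gene called between the adult groups. It was at 33.2 and 31.9 FPKM in adult miR-1247, 42.0 and 41.5 FPKM in adult control and 41.2 and 39.8 FPKM in E18 libraries. The miR-1247 libraries lay below the other 4 (-0.35 ± 0.0713, adjusted p = 0.0339, 0.0303 to 0.135 over the alternatives).

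**Figure D4:**
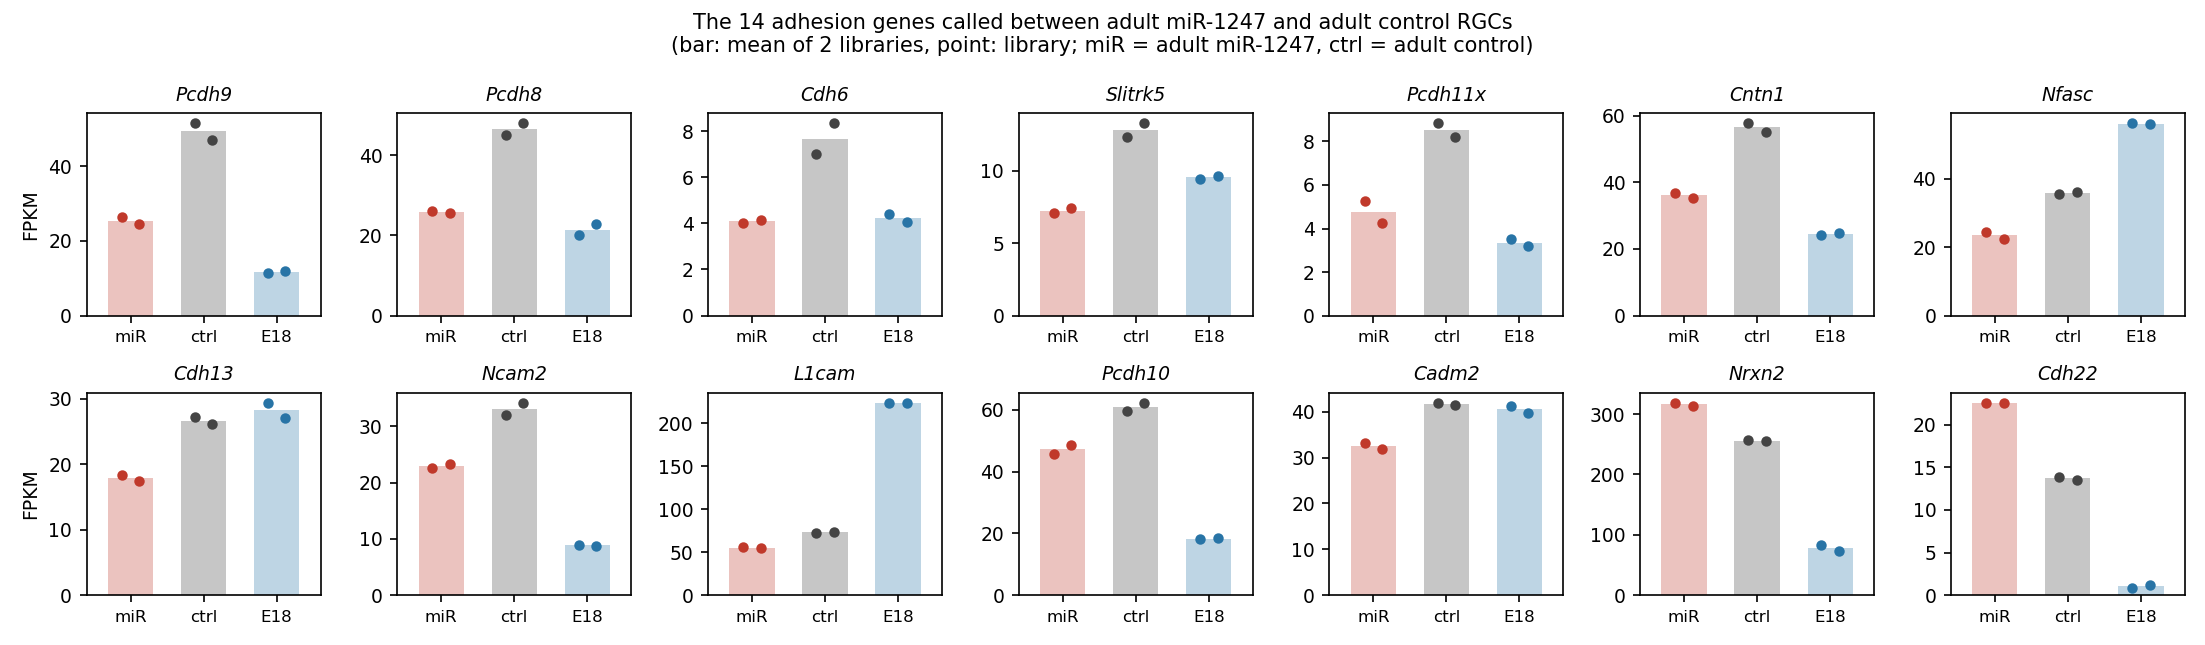
FPKM (vertical axis, a scale of its own in each panel) in adult miR-1247, adult control and E18 libraries of the 14 adhesion genes called between the adult groups; bars are means and points the 2 libraries. Pcdh9 is at 26.4 and 24.4 FPKM in miR-1247 against 51.6 and 47.1 FPKM in control libraries, and Nrxn2 and Cdh22 are higher in miR-1247 libraries. The genes were picked by their calls, so the separation of the adult points is not a further result.

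A microRNA binds mRNAs mainly through its seed, bases 2 to 8, so the 3′ untranslated regions were searched for the bases that pair with the seed of the introduced miR-1247-5p. The mature mouse sequence (RefSeq, GRCm38.p6) is shown with the seed in capitals, followed by the matches in adhesion genes elsewhere than in the clustered protocadherins, read on the mRNA strand from GRCm39, the assembly that mm39 names, with the matched bases in capitals.
mmu-miR-1247-5p: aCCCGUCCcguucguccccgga
Cadm4 (chr7:24203259-24203288, + strand): ccccagtcctgGGACGGGtaataaggattt
Cdh22 (chr2:164954028-164954057, - strand): cagcgcagcccGACGGGaggggatctgcag
Nfasc (chr1:132496053-132496082, - strand): tcaccattcctGACGGGagggttagggaaa
Nrcam (chr12:44649129-44649158, + strand): tccacttaggaGACGGGgagagaaaagcag
Nrcam (chr12:44650920-44650949, + strand): aagtgccccgaGACGGGcggccgaacagag
Nrcam (chr12:44650977-44651006, + strand): agatgcagtcaGACGGGacactatttggca

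Few adhesion genes held a match to the seed. The letters searched were GACGGG, which pairs with bases 2 to 7, and GGACGGG, which holds it and pairs with bases 2 to 8, on the mRNA strand only. Of 74 adhesion gene names with a 3′ untranslated region in the canonical GENCODE transcript, 5 (6.76%) held GACGGG, against 883 of 9790 tested names (9.02%). GGACGGG was in 1 (Cadm4; 1.35%), against 3.27% of all. The adhesion genes had the longer regions, with a median of 2450 bases against 1490, and so fewer matches for their length, 3.24 per 100 kb against 5.05. Each name was counted on its own here, so alpha and gamma protocadherins of 1 entry enter these values repeatedly. Pcdha11, Pcdha5 and Pcdha9 each have a region of 2401 bases and Pcdhga12 and Pcdhgc4 each 1832, without a match. Of the 12 genes lower in adult miR-1247 RGCs, 11 had such a region, and Nfasc alone held a match. Among adhesion gene names, 1 of 5 with a match and 10 of 69 without one were lower (14.5% of those without), and among all names 8.15% of those with a match and 6.07% of those without. Among the other holders, Cdh22 was higher in adult miR-1247 RGCs, and Cadm4, Nrcam and the entry of Pcdhb16 did not pass. A match is a description of letters and does not show binding.

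Partners of the adhesion molecules inside and outside the cell were followed in lists. Of 19 tested partners of cadherins and catenins, 13 were lower and 5 higher in adult control than in E18 RGCs, where 40.2% of all entries were lower and 29.8% higher. Ctnna2, the alpha-catenin of neurons, was at 28.3 and 32.1 FPKM in adult miR-1247, 30.8 and 31.8 FPKM in adult control and 115 and 121 FPKM in E18 libraries (-1.88 ± 0.0825 in adult control against E18, adjusted p = 3.58e-06). Ctnna1 and Ctnna2 have Lrrtm2 and Lrrtm1 inside them, so some reads may have been assigned to the wrong gene of a pair. The catenins Arvcf and Ctnnal1 were lower, at -2.06 ± 0.123 (adjusted p = 1.37e-05) and -1.98 ± 0.223 (adjusted p = 0.000256), and Nectin1, Ctnna1 and Ctnnd1 higher by 2.28 ± 0.135 (adjusted p = 1.31e-05), 0.90 ± 0.137 (adjusted p = 0.0011) and 0.44 ± 0.08 (adjusted p = 0.0026). Ctnnd1 shares its entry with Tmx2. In adult miR-1247 against adult control RGCs 1 of the 19 passed: Jup (plakoglobin) was at 31.2 and 31.2 FPKM in adult miR-1247 and 46.0 and 49.3 FPKM in adult control libraries (-0.60 ± 0.0658, adjusted p = 0.0071, 0.00635 to 0.052 over the alternatives).

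Of 31 tested scaffold proteins that hold synaptic adhesion molecules, 14 were higher and 11 lower in adult control than in E18 RGCs, against 29.8% higher and 40.2% lower of all entries. Dlgap1, which joins Dlg and Shank scaffolds, was at 87.3 and 84.0 FPKM in adult miR-1247, 84.1 and 84.0 FPKM in adult control and 3.59 and 4.53 FPKM in E18 libraries (4.08 ± 0.105, adjusted p = 4.25e-07). Dlg2 and Lin7a were higher by 2.14 ± 0.0532 (adjusted p = 3.89e-07) and 2.1 ± 0.0817 (adjusted p = 2.18e-06), and Homer3 and Lin7c were lower, at -2.94 ± 0.184 (adjusted p = 1.65e-05) and -2.08 ± 0.0839 (adjusted p = 2.56e-06). Epb41 was listed at 0 in all 4 adult libraries and at 52.7 and 53.6 FPKM in E18 libraries, and an exact 0 may be a failed estimate. Between the adult groups 3 were lower and 1 higher, against 6.22% and 3.53% of all entries. Apba1 (Mint1), which binds Cask, was at 38.5 and 35.8 FPKM in adult miR-1247 and 64.2 and 68.0 FPKM in adult control libraries (-0.82 ± 0.0779, adjusted p = 0.0049, 0.00413 to 0.0446 over the alternatives). Sdcbp (-0.78 ± 0.109, adjusted p = 0.0137, up to 0.0799 over the alternatives), Dlgap3 (-0.64 ± 0.102, adjusted p = 0.0192, up to 0.0978) and Homer3 (0.96 ± 0.184, adjusted p = 0.0297, up to 0.111) were lost in 5 to 7 of the alternatives.

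Of 50 further neuronal adhesion molecules tested, 22 were higher and 15 lower in adult control than in E18 RGCs, and 9 were lower and 2 higher in adult miR-1247 than in adult control RGCs. Of all entries 70.1% were called in the comparison with E18, 29.8% higher and 40.2% lower, and 6.22% were lower and 3.53% higher between the adult groups. Cbln2, a secreted bridge from neurexins to glutamate receptors, was at 158 and 155 FPKM in adult miR-1247, 89.5 and 85.1 FPKM in adult control and 8.91 and 11.5 FPKM in E18 libraries, the order of groups also found for Nrxn2. It was higher in adult control than in E18 RGCs by 2.99 ± 0.112 (adjusted p = 1.9e-06) and in adult miR-1247 than in adult control RGCs by 0.84 ± 0.112 (adjusted p = 0.0125, 0.00478 to 0.0809 over the alternatives). Clstn3, a neurexin-binding calsyntenin, was at 39.2 and 47.3 FPKM in adult miR-1247, 82.0 and 80.2 FPKM in adult control and 48.8 and 49.4 FPKM in E18 libraries (-0.90 ± 0.0947 in adult miR-1247 against adult control, adjusted p = 0.00604, 0.00252 to 0.047 over the alternatives). Elfn1, at 11.3 and 11 FPKM in adult miR-1247, 22.2 and 23.2 FPKM in adult control and 2.04 and 1.5 FPKM in E18 libraries, was lower, at -0.96 ± 0.145 in adult miR-1247 (adjusted p = 0.0166, up to 0.104) and higher by 3.10 ± 0.145 in adult control than in E18 RGCs (adjusted p = 4.74e-06). Igsf8 was higher by 3.17 ± 0.0927 in adult control than in E18 RGCs (adjusted p = 6.21e-07), and Igsf9, Dchs1 and Igsf9b were lower, at -3.30 ± 0.186 (adjusted p = 1.06e-05), -2.27 ± 0.146 (adjusted p = 1.85e-05) and -1.69 ± 0.163 (adjusted p = 0.000124). The calls of Fat3 and Igsf9 between the adult groups (0.45 ± 0.105, adjusted p = 0.0471, and -0.81 ± 0.186, adjusted p = 0.0435) were lost in most alternatives. Igsf9 was at 0 and 0.113 FPKM in adult miR-1247, 0.921 and 0.791 FPKM in adult control and 18.4 and 16.3 FPKM in E18 libraries. It entered the test through its E18 level. Its call between the adult groups, counted among the 9 lower, compares values under 1 FPKM and carries little weight.

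Enzymes that modify or cut adhesion molecules were followed in 2 lists of 12 tested genes, of which 9 each were called in adult control against E18 RGCs, a share near the 70.1% of all entries. St8sia2, which builds polysialic acid on Ncam1, was at 3.91 and 3.91 FPKM in adult miR-1247, 1.07 and 1.75 FPKM in adult control and 84.0 and 88.4 FPKM in E18 libraries. The E18 libraries exceeded every adult library by far, with -5.19 ± 0.165 in adult control against E18 RGCs (adjusted p = 8.83e-07), and the miR-1247 libraries lay above control by 1.04 ± 0.165 (adjusted p = 0.0189, 0.0165 to 0.0934 over the alternatives). The call of St8sia2 between the adult groups compares levels under 5 FPKM and was lost in the fit of only the 4 libraries compared. St8sia4, the other polysialic acid synthase, was at 0.248 and 0.497 FPKM in adult miR-1247, 1.16 and 0.775 FPKM in adult control and 5.01 and 4.86 FPKM in E18 libraries (-1.60 ± 0.216, adjusted p = 0.000618). St8sia4 entered the test through its E18 level, so its call, counted among the 5 lower below, is uncertain. Of 12 genes of polysialylation and glycosylation, 5 were lower and 4 higher in adult control than in E18 RGCs, among them Pomt1 at -1.79 ± 0.297 (adjusted p = 0.00166) and Tmtc1, Mgat5 and St8sia1 at 2.55 ± 0.153 (adjusted p = 1.39e-05), 1.24 ± 0.107 (adjusted p = 7.3e-05) and 1.12 ± 0.13 (adjusted p = 0.000296). Of 12 genes of ectodomain cleavage, 6 were lower and 3 higher in adult control than in E18 RGCs, and 0 passed between the adult groups. The sheddase Adam10 was lower, at -1.33 ± 0.0946 (adjusted p = 2.99e-05), with Ncstn at -1.53 ± 0.121 (adjusted p = 4.78e-05) and Mmp24 at -1.11 ± 0.119 (adjusted p = 0.000202). The inhibitors Timp2 and Timp3 were higher by 1.87 ± 0.12 (adjusted p = 1.85e-05) and 1.44 ± 0.274 (adjusted p = 0.00317). Timp3 was near the floor, at 1.33 and 2.67 FPKM in adult control and 0 and 0.168 FPKM in E18 libraries. Bace1 was higher by 0.58 ± 0.137 (adjusted p = 0.00824, up to 0.0588 without E18 library 2).

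The loci listed for adhesion genes are long, and locus span was looked at beside the calls. The loci of the 68 tested entries had a median span of 405 kb in mm39, against 37.7 kb for all entries. Of them, 52 (76.5%) exceeded 100 kb, against 22.2% of all. A span is that of the assembled locus and not of the gene. The 12 clustered protocadherin entries share the same stretch of 912 kb. Lrrtm1, Lrrtm2 and Lrrtm3, inside alpha-catenin genes, have loci of 1100, 136 and 1570 kb. All of these count among the 52. Among entries over 100 kb, 42.3% of the adhesion genes and 34.5% of all were higher, and 26.9% of the adhesion genes and 37.1% of all were lower, in adult control than in E18 RGCs. Between adult miR-1247 and adult control RGCs, 15.4% of the adhesion genes over 100 kb and 7.86% of all entries over 100 kb were lower. The part of locus length in these counts was not tested further.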

How the data were processed

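HISAT2, Cufflinks, Cuffdiff and the build mm39 are named in the submitters' processing notes without versions. The authors deposited FPKM values in 1 column per library. The authors' deposited log2 ratios were used only as a check and lay within 0.0015 and 0.0021 of recomputed ratios. The offset of 1e-05 was taken off, loci of 1 name were summed and names with identical locus identifiers were taken once. Depth is unknown, so no counting interval is given. Totals of the listed FPKM ran from 339224 to 392238, and libraries of a group correlated at 0.98 to 0.985 (r of log2 values).

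All 6 libraries entered 1 limma 3.58.1 model (R 4.3.3) of log2(FPKM + 1) with 3 group means and a variance trend. It was fitted to all 9987 entries with a mean of at least 1 FPKM, two-sided, with Benjamini-Hochberg adjustment over all of them and calls at 0.05. The fit was tested on simulated data. Fold changes on this scale understate those of weakly expressed genes. Named were, per family, the gene of the highest level, those called between the adult groups and those changed most with age, and up to 3 partner genes a list and direction. The members, families and lists were chosen with earlier results of these data known. The 17 alternatives were 3 scalings, 2 pseudocounts, 2 filters, single loci, no variance trend, a replicate block, 4 libraries only and each library left out. Sums, counts and plots came from pandas 2.3.3, Matplotlib 3.10.9 and NumPy 2.4.6 under Python 3.11.15. The values of 1 adhesion gene are not reported here.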

Additional observations from a re-analysis of the deposited data

How the results depend on the processing

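In adult control against E18 RGCs, 37 of 50 calls on adhesion genes held under all of the 17 alternatives that tested them, and no log2 fold change of a called gene changed sign. The higher calls numbered 27 to 39 and the lower calls 12 to 17 over the alternatives, and 27 to 33 and 12 to 17 with each library left out in turn. In adult miR-1247 against adult control RGCs, 1 of 14 calls held under all. The 2 higher calls were 5 under median ratio scaling, 0 under equal totals, 4 under quantile normalization, 1 with a pseudocount of 0.1, 4 with a pseudocount of 5, 1 without the variance trend, and 4 in the fit of only the 4 libraries compared. Leaving out each library in turn gave 0 to 1 higher and 1 to 5 lower. The lower calls were 8 to 14 under the other alternatives. Over all entries 353 were higher and 621 lower as reported, 136 and 764 under equal totals, 107 and 236 without the variance trend, and 35 to 94 and 88 to 181 with a library left out. The cause was not tested. Of the partner genes named, 29 of 30 calls against E18 and 2 of 11 between the adult groups held under all alternatives.

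Deviations from group means of libraries with equal numbers correlated at -0.01, 0.0 and 0.0 between the groups. These are values over all entries, so they cannot decide whether libraries with equal numbers were handled together. With the replicate block 33 adhesion genes were higher and 16 lower in adult control than in E18 RGCs, and 1 higher and 8 lower in adult miR-1247 than in adult control RGCs. Over all entries the block gave 206 higher and 378 lower between the adult groups.

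Without read counts the depth behind a level is unknown, and 2 libraries a group leave only differences well above their spread within reach. Entries under about 5 FPKM, such as Pcdh15, Cdh12 and several beta protocadherins, and entries that share a locus or overlap another gene, are the least certain.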

Other observations

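Some adhesion genes have more than 1 assembled locus in the table, and the loci of Cdh4 moved in opposite directions. One Cdh4 locus was at 12.7 and 13.8 FPKM in adult miR-1247, 17.2 and 14.7 FPKM in adult control and 29.7 and 31.5 FPKM in E18 libraries. Another was at 15 and 13.8 FPKM in adult miR-1247, 7.22 and 11.4 FPKM in adult control and 6.28 and 4.93 FPKM in E18 libraries, and a further one was listed at 0 in every library. The loci of Nrxn3 moved alike with age: the larger was at 63.0 and 65.9 FPKM in adult miR-1247, 55.4 and 58.5 FPKM in adult control and 7.54 and 5.59 FPKM in E18 libraries, and the smaller at 22.8 and 19 FPKM in adult miR-1247, 13.9 and 10.9 FPKM in adult control and 0 and 0.498 FPKM in E18 libraries. For Cdh20, 1 locus held 20.8 and 19.8 FPKM in adult miR-1247, 11.5 and 14.3 FPKM in adult control and 0 and 0.199 FPKM in E18 libraries, and nearly all of the rest of its level lay in single libraries. How reads were divided between such loci is not given in the sources used here.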
